A study of Mus musculus with 20 samples.

Results

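Stem cells of the hair follicle after 3 months of high fat diet (HFD) were compared, in the resting phase of the hair cycle (telogen), with the same cells after 3 months of normal diet (ND). The comparison takes 3 HFD and 3 ND arrays of the 20 in the series and covers all 17120 genes with a measured probe, of 22911 genes with a probe on the array. All mice were male and 5 months old at sampling, and no strain, transgene or cell sorting scheme is given in the sources used here. A 4-day diet experiment in telogen (HFD and ND, 3 arrays each, males 2 months old) and 1 HFD and 1 ND array from the growth phase (anagen) after 3 months were used to look up the signs of the same genes. The spread in the test comes from all 15 telogen arrays, which include the 4-day groups and 3 arrays of aged mice. The aged mice were older than the mice of both diet experiments, and no diet or diet duration is given for them in the sources used here. Nothing in the labels says that replicates are separate animals, so every p-value rests on a spread between arrays that may be technical.

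These stem cells sit in the bulge of the follicle, below the opening of the sebaceous gland, and remain quiet through telogen until Wnt signals and falling BMP signals start a new hair. Their descendants can take the hair, sebaceous or epidermal path. On the epidermal path keratinocytes build the cornified envelope, a protein shell cross-linked by transglutaminases and coated with ceramides, and later shed it with the help of kallikrein proteases. A high fat diet brings in fatty acids that cells store in droplets, burn in mitochondria or build into membranes, and the genes for these steps are often under PPAR control.

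Levels are given as log2 of the processed intensity after subtracting the 75th percentile of the array, so that 0 is the 75th percentile and differences are HFD minus ND. A gene entered when each of the 3 arrays of either diet showed its probe well above background: 14610 genes did so on all 6 arrays, 242 only through HFD and 2268 only through ND. All 23 genes of the bulge list passed on all 6 arrays. Krt15, a bulge keratin, stood at 6.74, 6.60 and 6.72 on the HFD arrays and 6.76, 6.75 and 6.83 on the ND arrays. Cd34, the surface antigen by which these cells are often sorted, stood at 5.00, 4.95 and 5.30 in HFD and 5.68, 5.48 and 5.56 in ND. HFD replicates 1 and 3 had fewer spots above background than the other arrays: 66.99%, 74.44% and 64.32% of spots on the HFD arrays were well above background, against 77.60%, 73.67% and 74.89% on the ND arrays. HFD replicate 3 stood apart, with 31.7% of genes at least 2-fold from the mean of the other arrays of its diet, against 22.5% and 22.7% for HFD replicates 1 and 2 and 21.0% to 21.3% for the ND arrays. Both diets shared 1 slide, HFD in row 2 and ND in row 1, so diet and slide row cannot be told apart.

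No gene passed the test between the diets. limma called 0 of the 17120 genes (0%) at an adjusted p below 0.05, and the smallest adjusted p was 0.50. At an unadjusted p below 0.05, 306 genes were higher (1.79%) and 351 lower (2.05%) in HFD, 657 in all where 856 would be expected with no difference. The 3 HFD arrays lay above all 3 ND arrays for 740 genes (4.32%) and below all 3 for 987 (5.77%), and 7941 genes (46.4%) had a difference above 0. The middle 90% of differences ran from -1.19 to 1.19, with a median of -0.04, and the median half-width of a gene's 95% interval was 1.12, so a 2-fold difference lies inside the interval of a typical gene. Genes below ND without overlap were unevenly spread over signal strength. In 10 equal bins of genes by level they made up 8.82% of the dimmest bin, 4.32% to 5.61% of bins 2 to 8, 7.07% of bin 9 and 8.35% of the brightest. In the dimmest bin HFD replicate 3 had a median of -0.68 relative to the ND mean, against 0.08 and -0.02 for HFD replicates 1 and 2. The filter let in genes bright in 1 diet alone: of the 2268 that entered only through ND, 1705 had a difference below 0. Among genes well above background on all 6 arrays, 673 lay above ND and 769 below without overlap. With no filter, 59.8% of the genes without overlap lay above. The part of the filter in the uneven spread over signal strength was not tested. The split of directions also moved with the scaling. With each array scaled by its median, 413 genes lay above ND and 1288 below without overlap, and the median over all genes was -0.12. What follows therefore describes genes and families by their values on each array, without a call for any of them.

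**Figure D1:**
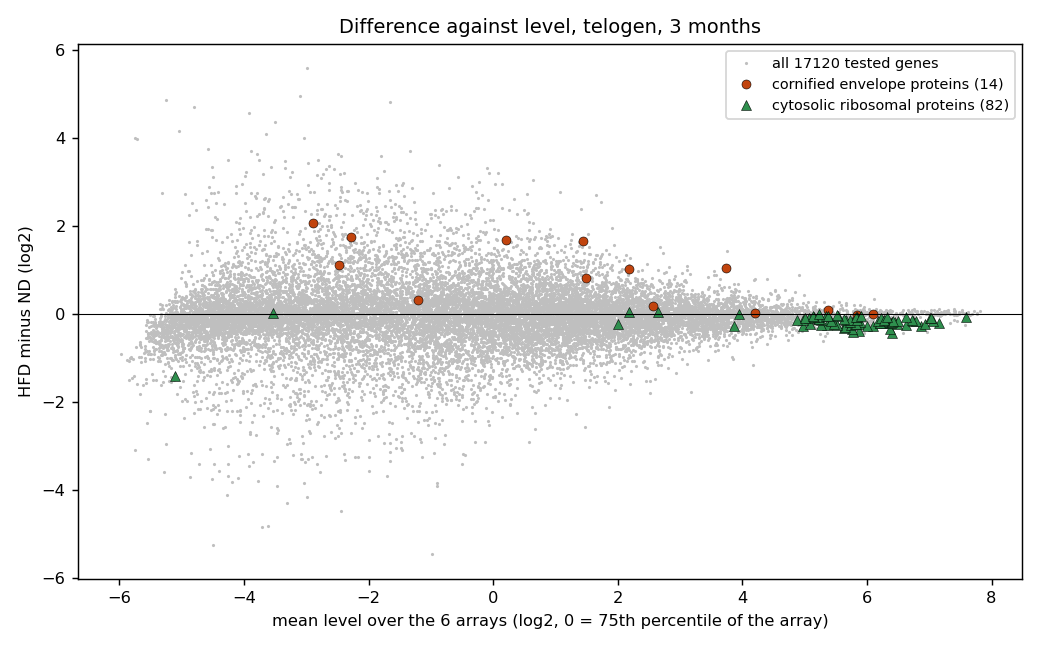
Each point is 1 of the 17120 tested genes, with the mean level over the 6 arrays across (log2, 0 is the 75th percentile of the array) and the HFD minus ND difference up (log2). Red circles are the 14 cornified envelope genes, 13 of them above 0, and green triangles the 82 cytosolic ribosomal protein genes, with 4 above 0 and most of them in a narrow band at the bright end.

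Proteins of the cornified envelope had the largest median difference of all the lists and families described, though not on every HFD array. Of 20 listed genes, 18 had a probe and 14 were tested, of which 13 had a difference above 0 with a median of 0.92, against a median of -0.04 over all tested genes. The mean over the list, relative to the ND mean, was 0.10, 1.39 and 1.04 on the HFD arrays (replicates 1 to 3), against -0.36, 0.10 and 0.26 on the ND arrays, so the higher values lay in HFD replicates 2 and 3. Sprr1a, a small proline-rich cross-bridging protein, stood at 2.17, 2.94 and 2.99 in HFD and 1.58, 1.62 and 1.83 in ND, every HFD array above every ND array (1.03 ± 0.76 SE, limma adjusted p 1, n = 3). It was the only member without overlap, 1 of 14 beside the 4.32% of all genes. Lor, loricrin, the main mass of the envelope, reached 5.49 and 5.04 on HFD replicates 2 and 3, but 2.26 on HFD replicate 1, against 2.23, 3.36 and 4.07 in ND. Hrnr, a filaggrin-type protein, stood at 0.22, 2.48 and 0.48 in HFD and -0.80, -1.43 and 0.34 in ND. The precursor proteins Sbsn, Krtdap and Dmkn, which are bright in both diets, differed by -0.01, 0.00 and 0.09. With each array left out in turn the median of the list ran from 0.29 (without HFD replicate 2) to 1.33 (without HFD replicate 1), and was 0.55 without ND replicate 1. The small proline-rich family had a median of 0.42, with 5 of 8 above 0. Its mean was 0.28, -0.01 and 1.03 on the HFD arrays, lowest on HFD replicate 2, and 0.20, 0.10 and -0.30 in ND. Suprabasal and basal keratins, and desmosome and tight junction genes, had medians of 0.08, and S100 proteins -0.09 (3 of 12 above 0).

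The promoters of 4 of these genes are shown because they lie close together in the epidermal differentiation complex and share short motifs near the start. RefSeq windows (GRCm38.p6) were found for 12 of the 14 tested members, and each stretch below is the 150 bases before the start of the gene, 5′ to 3′ on the gene's strand. Capitals mark TGANTCA, the AP-1 site letters with the middle base left free, and TATAAA, the TATA box letters.
Lor, chr3:92083143-92083292, minus strand: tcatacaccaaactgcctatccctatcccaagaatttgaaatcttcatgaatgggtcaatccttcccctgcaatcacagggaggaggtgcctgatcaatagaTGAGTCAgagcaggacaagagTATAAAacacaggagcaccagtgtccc
Sprr1a, chr3:92485882-92486031, minus strand: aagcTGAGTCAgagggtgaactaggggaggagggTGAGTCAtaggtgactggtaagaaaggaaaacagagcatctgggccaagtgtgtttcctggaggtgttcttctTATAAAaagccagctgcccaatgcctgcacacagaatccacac
Sprr1b, chr3:92438780-92438929, minus strand: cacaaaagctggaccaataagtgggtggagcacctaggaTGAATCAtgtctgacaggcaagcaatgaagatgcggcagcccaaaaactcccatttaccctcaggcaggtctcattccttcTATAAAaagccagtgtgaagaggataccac
Ivl, chr3:92573736-92573885, minus strand: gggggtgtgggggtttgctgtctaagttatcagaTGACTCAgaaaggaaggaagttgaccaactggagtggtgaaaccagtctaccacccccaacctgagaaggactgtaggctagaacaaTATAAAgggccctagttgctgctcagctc
The TATAAA letters begin 27 bases before the start in Lor, 43 in Sprr1a, 30 in Sprr1b and 29 in Ivl, and TGANTCA begins 48, 116, 111 and 116 bases before it, with another copy at 146 in Sprr1a. Within the 250 bases before the start, searched on both strands (TGANTCA reads the same on each), 8 of the 12 envelope windows (66.7%) held TGANTCA, against 5.45% of the 13538 windows of tested genes. TATAAA stood in 6 of the 12 (50%), against 9.42% of all. TGANTCA stood in 0 of the 11 late cornified envelope, 0 of the 17 envelope enzyme and 0 of the 18 barrier lipid windows. Among all genes it stood in 7.07% of windows of genes above ND without overlap and 4.94% of those below. Sbsn, Dmkn and Krtdap carry TGANTCA too and had differences near 0.

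**Figure D2:**
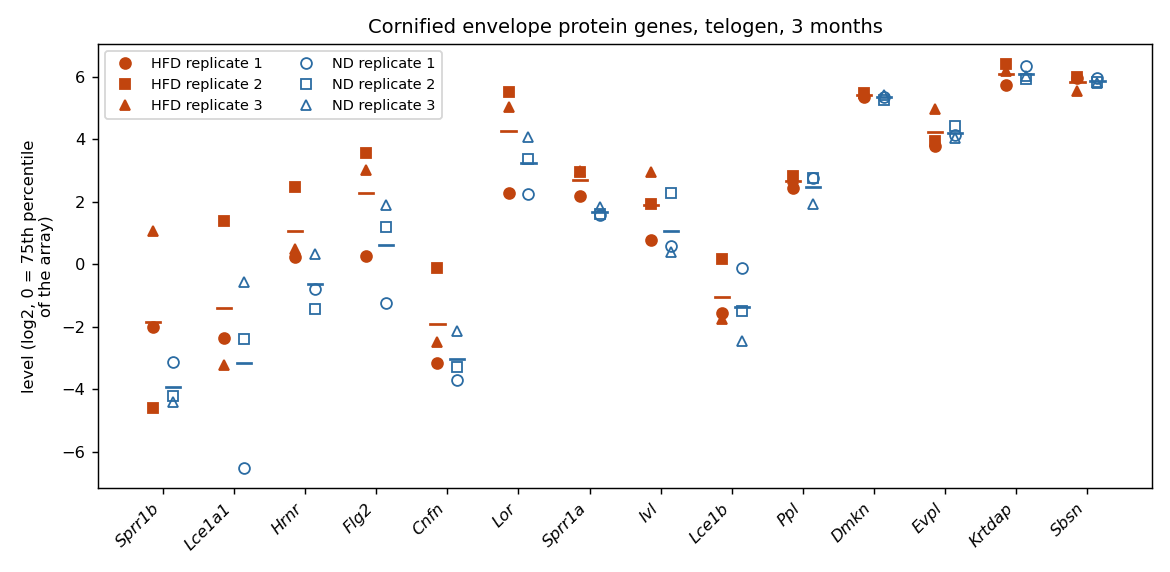
Levels of the 14 tested cornified envelope genes on each array (log2, 0 is the 75th percentile of the array), filled symbols for HFD and open symbols for ND, with bars at the means of 3 arrays. HFD replicates 2 and 3 lie highest for Lor and Flg2, HFD replicate 1 lies within the ND range for Lor, Flg2 and Ivl, and in Sprr1a no HFD array falls among the ND arrays.

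Enzymes that assemble and shed the envelope had a higher HFD mean for most genes, though their array means overlapped. The list mean was 0.27, 1.09 and 0.41 on the HFD arrays and 0.32, -0.36 and 0.04 on the ND arrays, so HFD replicate 1 lay below ND replicate 1. All 21 tested of 24 listed passed on all 6 arrays. Of these, 16 lay above 0, with a median of 0.45, and 3 were above ND without overlap, beside 4.32% of all genes. Tgm1, the transglutaminase that cross-links the envelope at the membrane, stood at 0.44, 1.66 and 1.56 in HFD and -0.94, -2.31 and -0.87 in ND, which is 2.59 ± 0.92 (SE) with an unadjusted p of 0.0157 and a limma adjusted p of 1. Klk10, a kallikrein-related protease, stood at 1.13, 0.40 and 1.19 in HFD and -1.12, -0.27 and -0.91 in ND (1.68 ± 0.65). Klk5, which starts the shedding cascade, stood at 1.76, 3.01 and 3.36 in HFD and 1.67, 0.90 and 0.89 in ND (1.56 ± 0.89). In each of these genes the lowest HFD array was above the highest ND array, by a narrow margin in Klk5. Over the whole kallikrein family of 21 tested genes the median was -0.08, with 9 above 0, and the median turned to 0.01 without HFD replicate 3 or without ND replicate 1. Klk1, a tissue kallikrein, was below ND without overlap. Without HFD replicate 2 the median of the enzyme list was 0.10.

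The late cornified envelope family, small proteins from the same complex, gave 10 of 11 tested genes above 0 and a median of 0.57, but the higher values were on 1 array; Lce1a1 and Lce1b are also on the envelope list. The family mean was 0.01, 1.96 and -0.01 on the HFD arrays (replicates 1 to 3), against -0.17, 0.04 and 0.13 on the ND arrays. Without HFD replicate 2 the median was -0.12. Lce1j stood at 0.45, 2.42 and -0.18 in HFD and -0.98, -0.85 and -0.63 in ND and was the 1 member without overlap. Members of this family resemble each other closely, and signal shared between their probes was not separated. Another 10 of its 21 genes were not tested.

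Macrophage and Langerhans cell markers, a check on other cells of the skin, also had their highest means on HFD replicates 2 and 3. Their mean was -0.12, 0.80 and 0.44 on the HFD arrays (replicates 1 to 3), against 0.18, 0.01 and -0.19 on the ND arrays, with 8 of 16 tested markers above 0 and a median difference of -0.04. Of the 20 listed, 13 were well above background on all 6 arrays, among them C1qb, and Mrc1 and C1qc on none. Sebocyte markers gave -0.12, 0.44 and -0.20 in HFD and 0.25, -0.51 and 0.26 in ND. Their part in the envelope values was not tested, and in RNA from many cells more cells of a type and more RNA per cell cannot be told apart.

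Ceramides and linoleic acid esters waterproof the envelope, and the enzymes that make them leaned the same way on the same arrays. Of 19 tested genes 14 were above 0, with a median of 0.38, 3 above ND without overlap (15.8%, beside 4.32% of all genes) and 1 below (5.26%, beside 5.77%). The list mean was -0.04, 1.01 and 0.78 on the HFD arrays and 0.15, 0.06 and -0.21 on the ND arrays. Sptlc1 and Sptlc2 encode the subunits of serine palmitoyltransferase, the first step of sphingolipid synthesis, which joins palmitoyl-CoA to serine. Sptlc1 stood at 1.72, 3.72 and 3.57 in HFD and 0.42, 0.71 and -0.22 in ND (2.70 ± 0.74, unadjusted p 0.00305, limma adjusted p 0.97). The other tested probe of Sptlc1 differed by 0.27 only. Sptlc2 stood at 1.20, 0.60 and 1.22 in HFD and 0.31, -0.09 and 0.22 in ND (0.86 ± 0.48), again with no HFD array among the ND arrays, while the alternative subunit Sptlc3 differed by -0.25. Cyp4f39, the omega-hydroxylase of very long ceramide chains, stood at -0.40, 0.86 and -0.46 in HFD and -1.35, -4.83 and -4.62 in ND (3.60 ± 1.43). Aloxe3, a lipoxygenase acting on the same ceramides, ran the other way with -2.39, -0.84 and -0.30 in HFD and 0.16, 0.03 and -0.15 in ND (-1.19 ± 1.14), and its partner Alox12b differed by 2.77 with overlap. With each array left out in turn the median of the list ran from 0.18 (without HFD replicate 2) to 0.64 (without HFD replicate 1), and was 0.20 to 0.23 without HFD replicate 3, ND replicate 1 or ND replicate 3.

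**Figure D3:**
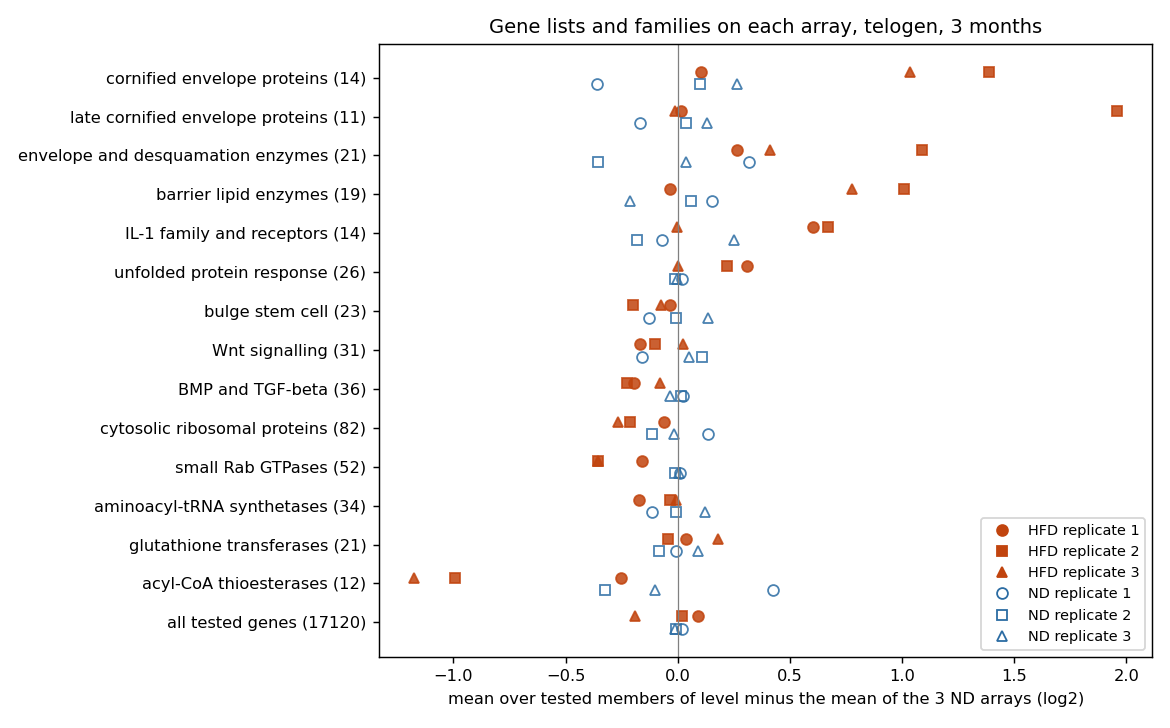
Mean over the tested members of each list or family (number in brackets) of the level on an array minus the mean of the 3 ND arrays (log2), filled symbols for HFD and open symbols for ND. The envelope and barrier lipid lists stand out on HFD replicates 2 and 3, the late cornified envelope family on HFD replicate 2 alone, and the mean over all genes lies between -0.19 and 0.09.

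Interleukin-1 signals of keratinocytes act through a receptor pair and are held back by decoys. Of 14 tested genes of this family 10 were above 0, with a median of 0.45, 3 above ND (21.4%, beside 4.32% of all genes) and 1 below (7.14%, beside 5.77%) without overlap. Of the 14, 10 passed on all 6 arrays, 1 only through HFD (Il18) and 3 only through ND, Il18bp among them. The shares without overlap thus include genes that passed only through the diet in which they were higher. Il1r2, the decoy receptor, stood at 0.95, 1.96 and 1.66 in HFD and -1.20, -0.97 and -0.07 in ND (2.27 ± 0.64, unadjusted p 0.00389, limma adjusted p 1). The other probe of Il1r2 differed by -0.02. Il1rap, the co-receptor, stood at 0.32, -0.47 and 1.94 in HFD and -1.19, -2.22 and -0.92 in ND (2.04 ± 1.31). Il18, an interleukin released after cleavage by inflammasome caspases, stood at -2.63, -0.37 and -0.69 in HFD and -3.46, -5.88 and -2.80 in ND, where 2 of 3 arrays were well above background. Il18bp, which binds and blocks it, was below ND without overlap, at -2.98, -2.80 and -5.05 in HFD (2 of 3 well above background) and -2.44, -2.08 and -2.13 in ND. The inhibitory members Il1rn and Sigirr differed by -0.50 and -0.85 with overlap. After 4 days of the diet the same family had a median of 0.45, with 10 of 14 above 0, though Il1r2 and Il18 were then at -0.45 and -0.82. The 3-month median was 0.04 without HFD replicate 2, 0.20 without HFD replicate 1 and 0.22 without ND replicate 3.

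Toll-like receptors, sensors of microbial molecules, gave a direction that turned with the filter. Of 7 tested receptors 2 were above 0 and 3 below ND without overlap, beside 5.77% of all genes, but 2 of the 7, Tlr5 among them, entered only through the ND arrays. With no filter 7 of 12 were above 0. Tlr2, the lipoprotein sensor, stood at -3.26, -3.38 and -3.99 in HFD and -2.13, -2.60 and -2.47 in ND (-1.14 ± 0.47). Tlr5, the flagellin sensor, was well above background on none of the HFD arrays and all of the ND arrays, at least 2.91-fold lower in HFD. Tlr7, an RNA sensor, stood at -3.28, -3.30 and -3.22 in HFD and -3.12, -3.07 and -2.30 in ND. These are dim genes, where the HFD arrays had the higher lower limits of detection (-4.63, -5.41 and -5.17 in HFD, -5.95, -5.54 and -5.67 in ND), and the median over the 12 receptor genes with no filter was 0.16 in place of -0.44. It was -0.16 without HFD replicate 3 and -0.17 without ND replicate 3. Of the NADPH oxidase genes Cyba, the shared membrane subunit, stood at 0.37, 0.17 and -0.00 in HFD and 0.93, 0.84 and 0.84 in ND, and Duox1, a keratinocyte oxidase, at 2.93, 3.20 and 3.43 in HFD and 3.57, 3.58 and 3.76 in ND. The other probe of Cyba differed by -0.27.

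Ribosomal protein genes had small differences of nearly uniform sign. Of 82 tested genes for the cytosolic ribosome 78 were below 0, by a median of -0.16, and 20 (24.4%) lay below ND on every array, against 5.77% of all genes and 8.35% of the brightest bin, which holds 77 of the 82. Without ND replicate 1 the median was -0.11. None was above ND without overlap. Rps24, a protein of the small subunit, stood at 6.22, 6.07 and 6.25 in HFD and 6.77, 6.57 and 6.50 in ND (-0.43 ± 0.31). Rpl27 of the large subunit stood at 5.73, 5.62 and 5.70 in HFD and 6.17, 6.01 and 6.04 in ND (-0.39 ± 0.32). Rpl13 differed by -0.41 ± 0.39 and Rpl37a by -0.28 ± 0.30, likewise with no HFD array at or above an ND array. The family mean was -0.06, -0.21 and -0.26 on the HFD arrays and 0.13, -0.12 and -0.02 on the ND arrays, and its groups overlapped. The limma adjusted p of these 4 genes was 1. Other probes of Rps24 differed by 0.04 and -0.14 and that of Rpl27 by -0.16, and many ribosomal protein genes have near-identical pseudogene copies that share probes.

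Mitochondrial ribosomal proteins had a median of -0.16 as well, with 31 of 78 above 0, 7 below ND without overlap (8.97%, beside 5.77% of all genes) and 2 above (2.56%, beside 4.32%). The aminoacyl-tRNA synthetases, which load amino acids for translation, had a median of -0.25 with 12 of 34 above 0, but of -0.07 without ND replicate 3, -0.12 without HFD replicate 2 and -0.14 without ND replicate 2. Aars2, the mitochondrial alanyl-tRNA synthetase, ran against the family at 0.81, 0.07 and -0.28 in HFD and -1.18, -2.09 and -2.43 in ND (2.10 ± 0.88). Chaperones and sensors of the unfolded protein response had small differences of the other sign: 20 of 26 were above 0, with a median of 0.16, and no member was without overlap in either direction. Without ND replicate 1 that median was 0.06. Edem1, which pulls misfolded glycoproteins toward degradation, differed by 0.60 ± 0.50 (-0.03 on its other probe) and Ppp1r15a, which restarts translation after stress, by 0.44 ± 0.43. In the Rab family, switches of vesicle traffic, 5 of 52 were below ND without overlap (9.62%, beside 5.77% of all genes) and 1 above (1.92%, beside 4.32%), with a median of -0.17. Rab35, of the recycling route, stood at 0.61, -0.01 and 0.09 in HFD and 1.47, 0.72 and 0.94 in ND, and Rab21, of early endosomes, at 0.87, 0.84 and -0.72 in HFD and 1.25, 1.78 and 1.41 in ND. Rab14, of endosome-to-Golgi traffic, was the 1 above ND, by 0.28 ± 0.24.

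Wnt genes below ND without overlap came from several roles: scaffold, secreted inhibitor, receptor and nuclear factor. Of 31 tested genes 15 were above 0, near the 46.4% of all, but 8 were below ND without overlap (25.8%, against 5.77% of all) and 1 was above. Axin1, the scaffold that marks beta-catenin for destruction, stood at 2.26, 2.16 and 1.25 in HFD and 2.79, 2.88 and 3.18 in ND (-1.06 ± 0.39, unadjusted p 0.0194, limma adjusted p 1). Its other probe differed by -0.11, and after 4 days of the diet Axin1 was also below ND without overlap, by -0.95. Wif1, a secreted Wnt inhibitor, stood at -0.71, -2.22 and -0.73 in HFD and 0.87, -0.51 and -0.70 in ND, a gap of under 0.1 between the nearest arrays. The receptor gene Fzd3 stood at 0.75, 0.75 and 1.15 in HFD and 1.37, 1.45 and 1.73 in ND. Wnt10b, a ligand of hair growth, was the 1 above ND, at -3.66, -3.40 and -2.44 in HFD and -3.99, -3.75 and -4.37 in ND, while its second probe differed by -0.39. The other members below ND, named after their values were seen, were the feedback inhibitor Axin2 (-1.47), the Dickkopf family member Dkk3 (-0.29), the nuclear factor Tcf7 (-1.20) and the receptors Fzd6 (-0.43) and Fzd2 (-0.27). Axin2, a target of the pathway, stood at -0.42, -0.38 and -2.67 in HFD and 0.23, 0.15 and 0.57 in ND. The median of the list, -0.07, had no stable sign: it was -0.27 without ND replicate 1, 0.07 without ND replicate 3 and 0.05 with no filter.

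BMP signals hold these cells at rest, while TGF-beta from the dermal papilla counteracts them when growth begins. Of the listed genes of both pathways, 9 of 36 genes were above 0 and the median was -0.22. Below ND without overlap were 3 of them (8.33%, beside 5.77% of all genes), and none was above. The list mean was -0.19, -0.22 and -0.08 on the HFD arrays and 0.02, 0.02 and -0.04 on the ND arrays. The family of BMPs and their receptors alone leaned the other way. It had 7 of 12 genes above 0, a median of 0.12 and no member without overlap. Ltbp2, a binding protein of the matrix that is also on the bulge list, stood at 3.27, 3.36 and 3.75 in HFD and 3.95, 4.10 and 4.29 in ND (-0.65 ± 0.34). Tgfbr1, the type I receptor, stood at 0.10, 0.06 and 0.49 in HFD and 0.68, 0.52 and 1.26 in ND, and Id3, a target gene of BMP signals, at 2.21, 2.12 and 1.49 in HFD and 2.91, 2.25 and 2.34 in ND. On the bulge list 16 of 23 genes were below 0 with a median of -0.07 (-0.14 without ND replicate 1, -0.02 without HFD replicate 2). Cd34 (other probe -0.26), Ltbp2 and Krt15 were those below ND without overlap, 3 of 23 (13.0%, beside 5.77% of all genes), and none was above. After 4 days the BMP and TGF-beta median was 0.09, with 22 of 36 above 0.

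Lists for lipid droplets, cholesterol synthesis and PPAR targets showed no common direction, and no median among them kept its sign with each array left out. The median was 0.11 for lipid droplet genes (11 of 19 above 0), 0.14 for cholesterol synthesis (16 of 25) and -0.15 for PPAR targets and fatty acid oxidation (14 of 33). Without HFD replicate 2 the lipid droplet median was -0.10, without ND replicate 2 that of cholesterol synthesis was -0.03, and without HFD replicate 1 that of the PPAR list was 0.00. The mean of the last list was 0.08, opposite in sign to its median. The neighbouring uncoupling protein genes on chromosome 7 were above ND without overlap. Ucp2 stood at 5.83, 5.16 and 5.08 in HFD and 4.29, 4.21 and 4.86 in ND (0.90 ± 0.63), and Ucp3 at 4.90, 4.55 and 4.35 in HFD and 3.64, 3.53 and 4.22 in ND (0.80 ± 0.42). Both encode carriers of the inner mitochondrial membrane, and the other probe of Ucp2 differed by 1.25. Acadl, the long-chain acyl-CoA dehydrogenase, stood at 1.76, 1.84 and 1.79 in HFD and 1.20, 1.17 and 1.46 in ND (0.52 ± 0.25), with an SD of 0.04 over the HFD arrays. Ppard, a nuclear receptor for fatty acids, lay below ND at -0.34, -0.99 and -1.64 in HFD and -0.26, -0.14 and 0.24 in ND. In cholesterol synthesis, Ebp stood at 1.83, 2.62 and 1.13 in HFD and 2.75, 2.86 and 3.20 in ND (other probe -0.71), whereas the reductase Dhcr7 was above ND by 0.55 ± 0.41 without overlap. Plin3, a coat protein of droplets, differed by -0.22 ± 0.22 without overlap.

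The acyl-CoA thioesterases, which free fatty acids from coenzyme A, had 2 of 12 genes above 0 and a median of -0.54. Their mean was -0.25, -0.99 and -1.18 on the HFD arrays and 0.42, -0.32 and -0.10 on the ND arrays. Acot8, a peroxisomal member, stood at 2.99, 3.09 and 3.01 in HFD and 3.89, 3.47 and 3.34 in ND and was the 1 member without overlap; 3 of the 12 entered through the ND arrays alone. Glutathione transferases, which conjugate oxidised lipids and toxins, gave 5 of 21 genes below ND without overlap (23.8%, beside 5.77% of all genes) and none above. Gstp1 stood at 3.58, 3.29 and 3.42 in HFD and 3.91, 3.61 and 3.96 in ND, and Gstm2 at 2.81, 2.82 and 3.15 in HFD and 3.30, 3.65 and 3.21 in ND. Their median was -0.22, although their mean on the HFD arrays was 0.04, -0.05 and 0.18, and after 4 days of the diet the median was -0.33. The 3-month median was -0.09 without HFD replicate 2, -0.14 without HFD replicate 1 and -0.06 with no filter. Among antioxidant genes Prdx6, a peroxiredoxin that reduces phospholipid peroxides, differed by -0.70 ± 0.29 (0.07 on its other probe) and the peroxidase Gpx8 by -0.76 ± 0.33, and the list of 30 had a median of -0.10, which was -0.05 without HFD replicate 2 or 3 and -0.16 without ND replicate 2.

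Single genes were then ranked by p, across all classes. Of the 14610 genes detected on all 6 arrays, 673 lay above ND and 769 below it without overlap. With predicted and clone names left out, 278 of those above and 215 of those below were also at least 2-fold apart. The 15 of smallest p in each direction had limma adjusted p values between 0.849 and 1. Of those above ND, Prodh2, Slc1a5 and Fuom handle amino acids or sugars. Prodh2, hydroxyproline dehydrogenase, stood at -2.19, -1.35 and -1.27 in HFD and -3.51, -3.05 and -2.90 in ND (1.55 ± 0.36, unadjusted p 0.000942). Slc1a5, the glutamine transporter ASCT2, stood at -0.53, -0.72 and 0.28 in HFD and -5.19, -3.47 and -1.61 in ND (3.10 ± 0.85), with the spread on the ND side. Fuom, a fucose mutarotase, stood at 1.68, 1.91 and 2.96 in HFD and 1.05, 0.09 and -0.09 in ND (1.83 ± 0.43), and its other probe differed by 1.98.

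Osgin1, an oxidative stress responsive growth inhibitor, had the widest difference of the 15, at -1.80, -2.45 and 0.50 in HFD and -4.10, -4.50 and -4.62 in ND (3.15 ± 0.79). Ddx28, a helicase of the mitochondrial ribosome, stood at -0.39, -0.34 and -1.38 in HFD and -2.80, -1.98 and -2.50 in ND (1.73 ± 0.36). Mettl8, a mitochondrial tRNA methyltransferase, gave tight values of 1.09, 1.18 and 1.29 in HFD and 0.02, -0.02 and 0.03 in ND. The other 2 probes of Mettl8 differed by -0.45 and 2.41. Fbxl18, a substrate adaptor of ubiquitin ligases, differed by 2.79 ± 0.58 while its second probe gave -0.17. Fam20c, a kinase of secreted proteins, differed by 2.28 ± 0.58 against 0.02 on the other probe, and Nt5dc3 by 2.83 ± 0.66 against 0.52. The remaining members were Shisa6 (2.27), a partner of glutamate receptors, the kinase regulator Mob2 (1.72), the secreted protein Nell1 (1.45), the copine Cpne5 (1.19), the olfactory receptor Olfr319 (1.06) and Sptlc1, given above.

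Among the 15 ranked genes below ND, Cd59b, which blocks the complement pore, stood at -3.60, -1.62 and -3.70 in HFD and 0.59, -0.34 and -0.68 in ND (-2.83 ± 0.60, unadjusted p 0.00049). Podxl2, a sialomucin, stood at -3.11, -3.83 and -3.92 in HFD and -0.81, 0.14 and -0.46 in ND (-3.24 ± 0.77), and its second probe gave -2.11. Gnptg, a subunit of the enzyme that tags lysosomal proteins, differed by -1.50 ± 0.39 and by -1.35 on a second probe. Sncg, gamma-synuclein, stood at 1.45, 1.85 and 0.93 in HFD and 2.50, 3.22 and 3.24 in ND (-1.58 ± 0.45), with -1.08 on a second probe. For these 3 genes the probes had the same sign.

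Pla2g4a, the phospholipase that frees arachidonic acid from membranes, stood at 1.07, 0.82 and 1.57 in HFD and 2.30, 2.58 and 2.03 in ND (-1.15 ± 0.32). Nme3, a nucleoside diphosphate kinase, stood at 1.83, 2.13 and 1.11 in HFD and 3.25, 2.90 and 3.47 in ND (-1.51 ± 0.33), a bright gene with narrow groups. Dact3, an inhibitor of Wnt signals, stood at -0.78, -1.83 and -2.38 in HFD and -0.66, 0.23 and 0.79 in ND (-1.78 ± 0.52). Dpyd, the enzyme that breaks down uracil and thymine, stood at -1.09, -1.43 and -3.03 in HFD and -0.15, -0.33 and -0.24 in ND. The other members below ND were the nuclear RNA-processing factor Nrde2 (-3.67), Mapk1ip1 (-2.83), the triose kinase Tkfc (-2.77), Syde2 (-2.52), Tmem268 (-1.68), the ubiquitin ligase adaptor Btbd6 (-1.59) and Tmem179b (-1.22). HFD replicate 3 was the lowest array for Syde2 and Dpyd by more than 1.5.

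**Figure D4:**
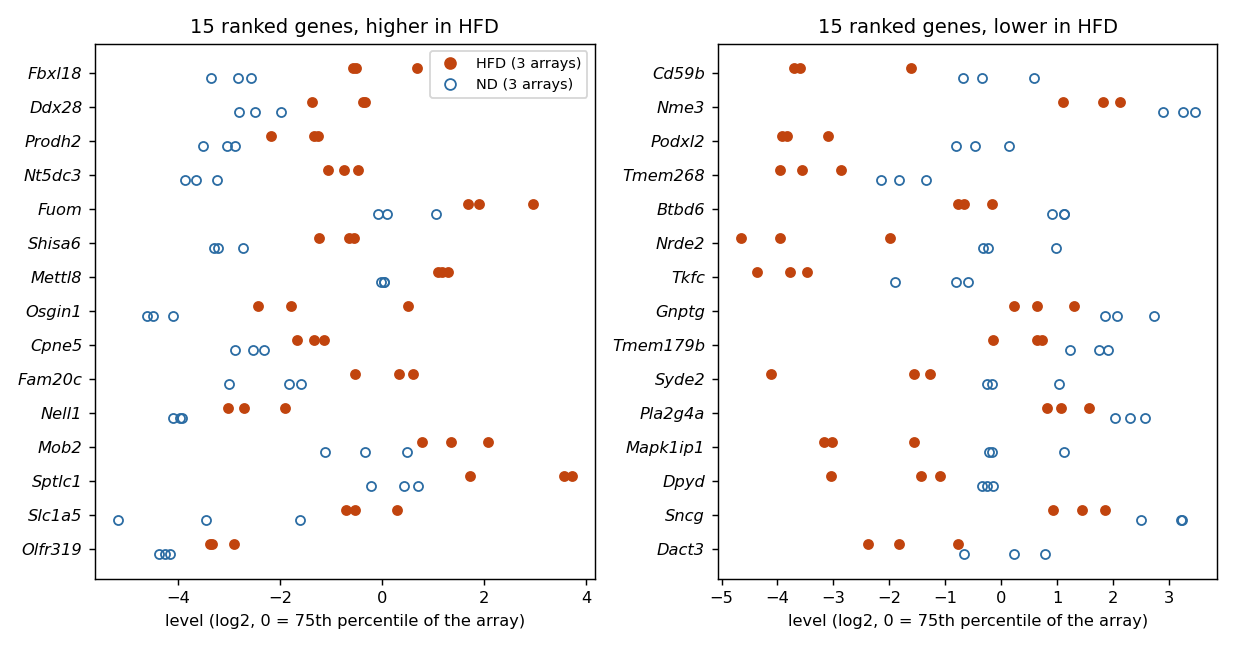
Levels of the 15 ranked genes above ND (left) and the 15 below (right) on each array (log2, 0 is the 75th percentile of the array), filled circles for HFD above open circles for ND. No gene shown has overlapping groups, which is how they were chosen, and the spread within a diet ranges from under 0.1 (Mettl8 in ND) to over 3 (Slc1a5 in ND).

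A further set of genes was detected in 1 diet alone. Of the 17120 tested genes, 6 were well above background on all 3 HFD arrays and none of the ND arrays. The reverse held for 225, beside the lower detection on the HFD arrays described above. These genes passed the filter only through the diet in which they were detected, so their direction follows from how they were chosen. Tox3, a chromatin protein of the HMG-box family, was at least 7.51-fold higher in HFD and Cd84, a leukocyte adhesion receptor, at least 6.72-fold. Alg13, of N-glycan assembly, Tnfaip6, a hyaluronan-binding protein of inflammation, and Pramel11 had bounds of 5.91-fold, 3.98-fold and 3.92-fold higher. On the ND side Apln, the peptide apelin, was at least 9.15-fold lower in HFD, Htr1b, a serotonin receptor, at least 7.36-fold, Pdia5, a disulfide isomerase, at least 6.77-fold and Colec11, a collectin, at least 6.24-fold. Dlgap1, Evx1os, Pim2 and Scamp5 had bounds of 5.48-fold, 3.50-fold, 3.34-fold and 3.26-fold lower. The bounds rest on means, and values in ND spread from -3.81 to 0.62 for Apln, -5.91 to -1.26 for Evx1os and -5.31 to -1.02 for Scamp5. The lowest Evx1os value in ND lay under the lower limit of detection of every HFD array (-4.63, -5.41 and -5.17). None of the genes detected in 1 diet alone passed the test (smallest limma adjusted p 0.849).

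Apbb1, Kbtbd6 and Ppp1r3d lie outside the naming rule, are given because an alternative setting called them, and were chosen after their values were seen. Apbb1, an adaptor of the amyloid precursor protein, had the smallest p of all genes, with -4.10, -4.18 and -5.89 in HFD and -1.65, -0.80 and -1.87 in ND (-3.28 ± 0.51, limma adjusted p 0.50; 2 of 3 HFD arrays well above background). Of the settings tried, quantile normalization and median scaling called it. Kbtbd6 stood at -4.55, -4.52 and -5.23 in HFD and -0.92, -3.90 and -1.71 in ND and was called only without ND replicate 2. Ppp1r3d, which directs a phosphatase to glycogen, stood at -3.68, -4.26 and -4.16 in HFD and -0.96, -1.12 and -2.66 in ND, and was called for diet by duration when the 12 arrays of both durations were fitted alone.

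The 4-day arrays show whether genes ranked at 3 months had the same sign early in the diet. They lay on slide 2, again with HFD in row 2 and ND in row 1. A sign kept at both times therefore cannot tell diet from slide row. The test of diet by duration called 0 genes (0%), with 651 at an unadjusted p below 0.05 and a smallest adjusted p of 0.362. Of the 278 genes above ND and past 2-fold at 3 months, 147 (52.9%) were also above 0 after 4 days, where 47.0% of all genes were. Of the 215 genes below, 108 (50.2%) were below 0 after 4 days, where 53% of all were. Between the single anagen arrays the sign was kept by 140 (50.4%) and 117 (54.4%), where 63.1% and 36.9% of all genes had it; the anagen HFD array lay on slide 2 and the anagen ND array on slide 1, so there diet and slide cannot be told apart. Among the 30 ranked genes, 6 of 15 above ND and 10 of 15 below kept their sign after 4 days, and Slc1a5, at 3.10 after 3 months and 2.65 after 4 days, was the widest pair. The envelope list had a 4-day median of 0.17 (9 of 14 above 0), the enzyme list -0.24 (7 of 21), the barrier lipid list -0.30 (7 of 19) and the ribosomal proteins -0.07 (17 of 82). Sprr1a was at 1.07, while Tgm1, Klk10 and Klk5 gave 0.10, -0.42 and -0.36.

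**Figure D5:**
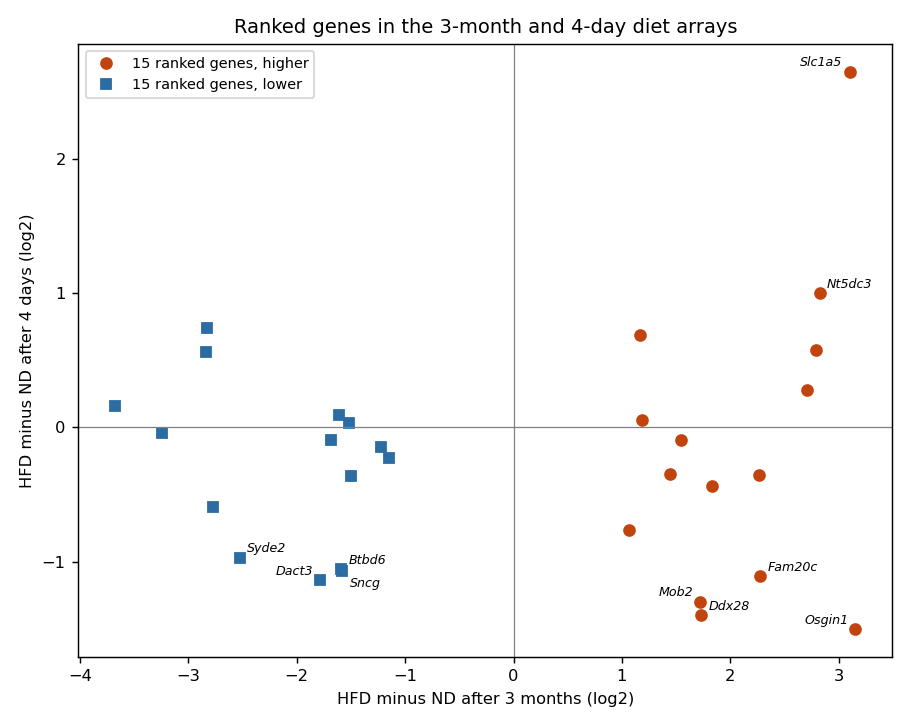
Difference between HFD and ND after 4 days (up, log2) against that after 3 months (across, log2) for the 15 ranked genes above ND (circles) and the 15 below (squares), chosen on the 3-month values. Points lie on both sides of 0 after 4 days: 6 of the 15 circles are above it and 10 of the 15 squares below.

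Markers of other skin cells were detected in part. Of 12 listed endothelial genes 5 were well above background on all 6 arrays, Vwf among them, and Cdh5, Kdr, Flt1, Tie1 and Emcn on none. Of 20 fibroblast and dermal papilla genes 11 were so on all 6 arrays, and Dcn, Alpl and Sox2 on none. Of 16 T cell genes 9 were so on all 6, among them Cd3e, and Gzmb on none. Cd3e, a chain of the T cell receptor complex, stood at -0.57, 0.34 and -1.36 in HFD and -1.78, -1.71 and -1.57 in ND, without overlap. It was the 1 such member of 11 tested T cell genes (9.09%, beside 4.32% of all genes). Of the 11, 7 were above 0 and 4 below, with a median of 0.22. For neutrophils 4 of 10 genes were so on all 6 and S100a8 on none, and for mast cells 2 of 10 and Cpa3 on none. T cell markers gave 1.08, 0.67 and -0.82 on the HFD arrays and 0.17, 0.34 and -0.51 on the ND arrays, and adipocyte markers 0.22, 0.46 and -0.15 in HFD and -0.01, 0.09 and -0.08 in ND. Mast cell markers had 0 of 6 tested genes above 0 (median -0.38), but 4 of the 6 entered through the ND arrays alone, and with no filter 3 of 9 were above 0. The part of these cells in the results above was not tested.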

How the data were processed

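RNA of hair follicle stem cells, Cy3-labelled per the labels, was hybridised to 1-colour Agilent mouse arrays, and 6 of them enter the comparison. Processed intensity is the background-subtracted, detrended spot intensity from Agilent Feature Extraction 10.7.1.1, per the file headers. The deposited series table holds a linear signal proportional to each array's processed intensity, with a divisor near the 75th percentile and column medians of 0.092 to 0.143 on the 6 arrays; the step behind it is not stated in the labels, and it served as an alternative.

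Control spots and outlier flags were left out, and no spot was saturated. Spots of a probe were averaged on the linear scale, and log2 of that mean minus the array's 75th percentile over probes was taken. Of 56605 probes, 32994 have 1 symbol and 23611 none. A gene is represented by its tested probe of highest mean over the 6 arrays. limma 3.58.1 in R 4.3.3 was fitted to all 15 telogen arrays (5 groups of 3), two-sided, with Benjamini-Hochberg adjustment at 0.05, and was tested on simulated data. A probe dim in all arrays of a diet has only a bound: the bright diet's mean against each dim array's lowest signal well above background. The number of arrays limits the precision.

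Named are, per direction, the 15 genes of smallest p among those detected on all 6 arrays, without overlap and at least 2-fold apart, leaving out predicted and clone names. Up to 8 genes detected in 1 diet alone with the largest bounds are also named, and up to 4 members per list without overlap, by p; other members are given to show a list's range and were chosen after their values were seen. The genes, lists and families were chosen with earlier results of these data known. Alternatives covered background correction (normexp, offset 50), scaling, the filter, the probe rule, the fit, a replicate block and each array left out. Promoter windows come from RefSeq (GRCm38.p6).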

Additional observations from a re-analysis of the deposited data

Results flagged for a closer look

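For 7 named genes all arrays moved one way after 3 months of HFD and the opposite way after 4 days, without overlap between the diets at either time. They are 7 of 102 named genes (6.86%). Over all tested genes this held for 65 (0.38%), and 85 (0.496%) were without overlap in the same direction at both times. All 65 lie among the 1727 genes without overlap at 3 months, from which most named genes were chosen. The shares of named and of all genes are therefore not on a like base. Ppp1r3d was named because a fit of diet by duration had called it. The limma test of the difference between the durations passed for none of the 7. The mice of the 4-day arrays were also younger and their arrays lay on another slide, so duration, age and slide cannot be told apart.

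Ddx28, the helicase of the mitochondrial ribosome, differed by 1.73 after 3 months and -1.40 after 4 days, a difference between durations of 3.13 ± 0.51 (SE) with an unadjusted p of 4.23e-05 and a limma adjusted p of 0.362. Osgin1 gave 3.15 and -1.50, 4.65 apart (adjusted p 0.951). Fam20c gave 2.28 and -1.11, 3.39 apart, and Mob2 1.72 and -1.30, 3.02 apart, with the same adjusted p. Cd84, not above background on the 3-month ND arrays, gave fitted values of 4.16 and -2.71, 6.87 apart (adjusted p 0.953). Acadl gave 0.52 and -0.37, 0.89 apart (adjusted p 0.999). Ppp1r3d ran the other way, at -2.45 after 3 months and 5.80 after 4 days, a difference of -8.24 (adjusted p 0.697).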

How the results depend on the processing

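The count of genes at an adjusted p below 0.05 was 0, and 0 under every alternative except quantile normalization (1, Apbb1, -3.23, adjusted p 0.0217), median scaling (1, Apbb1, -3.37, adjusted p 0.0411) and leaving out ND replicate 2 (1, Kbtbd6, adjusted p 0.0435), so leaving out each array gave 0 to 1. The count at an unadjusted p below 0.05 was 657, against 1210 of 22911 genes with no filter, 1043 with array weights and 550 to 877 without each array. Genes without overlap numbered 1727, 3035 with no filter (13.2%) and 3120 to 3845 without each array, where fewer arrays are compared. Those above ND numbered 740, 413 with median scaling, 1816 with no filter and 1333 to 2016 without each array, and those below ND 987 and 1750 to 2341 without each array. The share above ND among genes without overlap was 42.8%, 24.3% with median scaling and 59.8% with no filter. Diet by duration called 0 genes, and 1 with the 12 arrays alone (Ppp1r3d, adjusted p 0.00102). Except where the construction is named, the cause was not tested.

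With the replicate number as a block the counts were 0 and 649. Deviations of same-numbered arrays correlated at 0.0448, 0.0332 and 0.0243, so the numbers were not taken as pairs. No named gene turned its sign in 1963 comparisons with an alternative, while 10 list medians moved beyond the replicate spread and 410 did not. Most named genes were chosen for groups without overlap, where leaving out 1 array cannot turn the sign. The kept signs are therefore no measure of stability. Without HFD replicate 2 the envelope, enzyme, barrier lipid and late cornified envelope medians were 0.29, 0.10, 0.18 and -0.12. With 3 arrays a diet, the median half-width of a gene's interval, not adjusted for the number of genes, was 1.12. Differences under 2-fold thus lie inside the interval of a typical gene. The threshold on the adjusted p is stricter: Apbb1, at -3.28 ± 0.51 (SE), had a limma adjusted p of 0.50. A count of 0 therefore does not exclude differences of 2-fold or more. Dim genes are also limited by signal over background.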
